A study of Rattus norvegicus with 8 samples.

Results

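Mitochondrial ribosomal protein genes were taken as every array probe whose RefSeq accession belongs to a rat gene with a symbol that starts with Mrpl or Mrps and a number. The rule used no measured value, and it found 63 genes with 73 of the 41012 probes on the array. All 63 were tested, and each was well above background on all 8 arrays. The gene table lists 78 protein-coding symbols of this form. The other 15, for which no probe was matched, were Mrpl28, Mrpl33, Mrpl39, Mrpl41l1, Mrpl42l1, Mrpl43, Mrpl52, Mrpl58, Mrps10, Mrps21l, Mrps27, Mrps28, Mrps36l1, Mrps6 and Mrps7.

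The arrays measured liver RNA of male Wistar/ST rats on 1-colour Agilent arrays. The 4 Eucommia samples came from rats that drank Eucommia ulmoides leaf extract, and the 4 Control samples from rats without it. Both groups were fed a high-fat diet with high-fructose water, so the Control rats were not on a standard diet, and livers were taken after 5 weeks. The labels describe liver taken from each rat but do not otherwise tie each array to a different animal, and the p-values cover the spread among these samples, which may be technical. Values are log2 signals relative to the 75th percentile of each array, so 0 is the signal at that percentile, and a difference is the Eucommia mean minus the Control mean of these log2 values.

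Mitochondria carry their own ribosome, which translates the few proteins encoded in mitochondrial DNA, all of them subunits of the respiratory chain or of ATP synthase. The ribosomal RNAs come from mitochondrial DNA, while every protein of this ribosome is encoded in the nucleus, made in the cytosol and imported. Mrpl genes encode proteins of the large subunit, which forms peptide bonds, and Mrps genes mostly encode proteins of the small subunit, which reads the messenger RNA. Mrps30 and Mrps18a carry the small-subunit prefix, although their products lie in the large subunit in structures of mammalian mitoribosomes.

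As a group these genes differed little between the livers of Eucommia and Control rats. With limma and Benjamini-Hochberg adjustment over all 25120 features, at a threshold of 0.05, 1 of the 63 genes was higher (Mrpl38) and 2 were lower (Mrpl16 and Mrpl3), which is 4.76%. Of all features 24.6% passed: 18.4% were higher and 6.17% lower. Most features that passed were dim, whereas 60 of the 63 genes had a mean signal above 0. Among the 8960 features with such a signal, 9.69% passed, with 3.73% higher and 5.96% lower. Unadjusted p was under 0.05 for 6 of the 63 genes (9.52%), against 35.7% of all features. The values of the groups did not overlap for 8 of the 63 (12.7%), against 28.5% of all features. Both shares were lower in brighter features. With a mean signal of 0 to 2, 2 to 4 and above 4, unadjusted p was under 0.05 for 22.9%, 18.7% and 17.1% of features. The groups did not overlap for 18.8%, 16.7% and 14.0% of them.

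The differences were small as well as few. The median over the 63 genes was 0.0009, with quartiles of -0.08 and 0.05, and 32 genes had positive and 31 negative differences. The median over all features was 0.02. The median absolute difference was 0.075 for the 63 genes and 0.230 for all features. The 95% interval of the difference lay within 1.5-fold in both directions for 61 of the 63 genes, all but Mrpl40 and Mrpl21. This held for 49.9% of all features and for 78.0% of those with a mean signal above 0, and it depends on the size of the difference as well as on its error. Over the 63 genes the interval bounds ran from -0.66 to 0.58, and the standard errors from 0.076 to 0.21. In whole liver, a change in the number of cells of a type and a change in RNA per cell cannot be told apart.

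**Figure D1:**
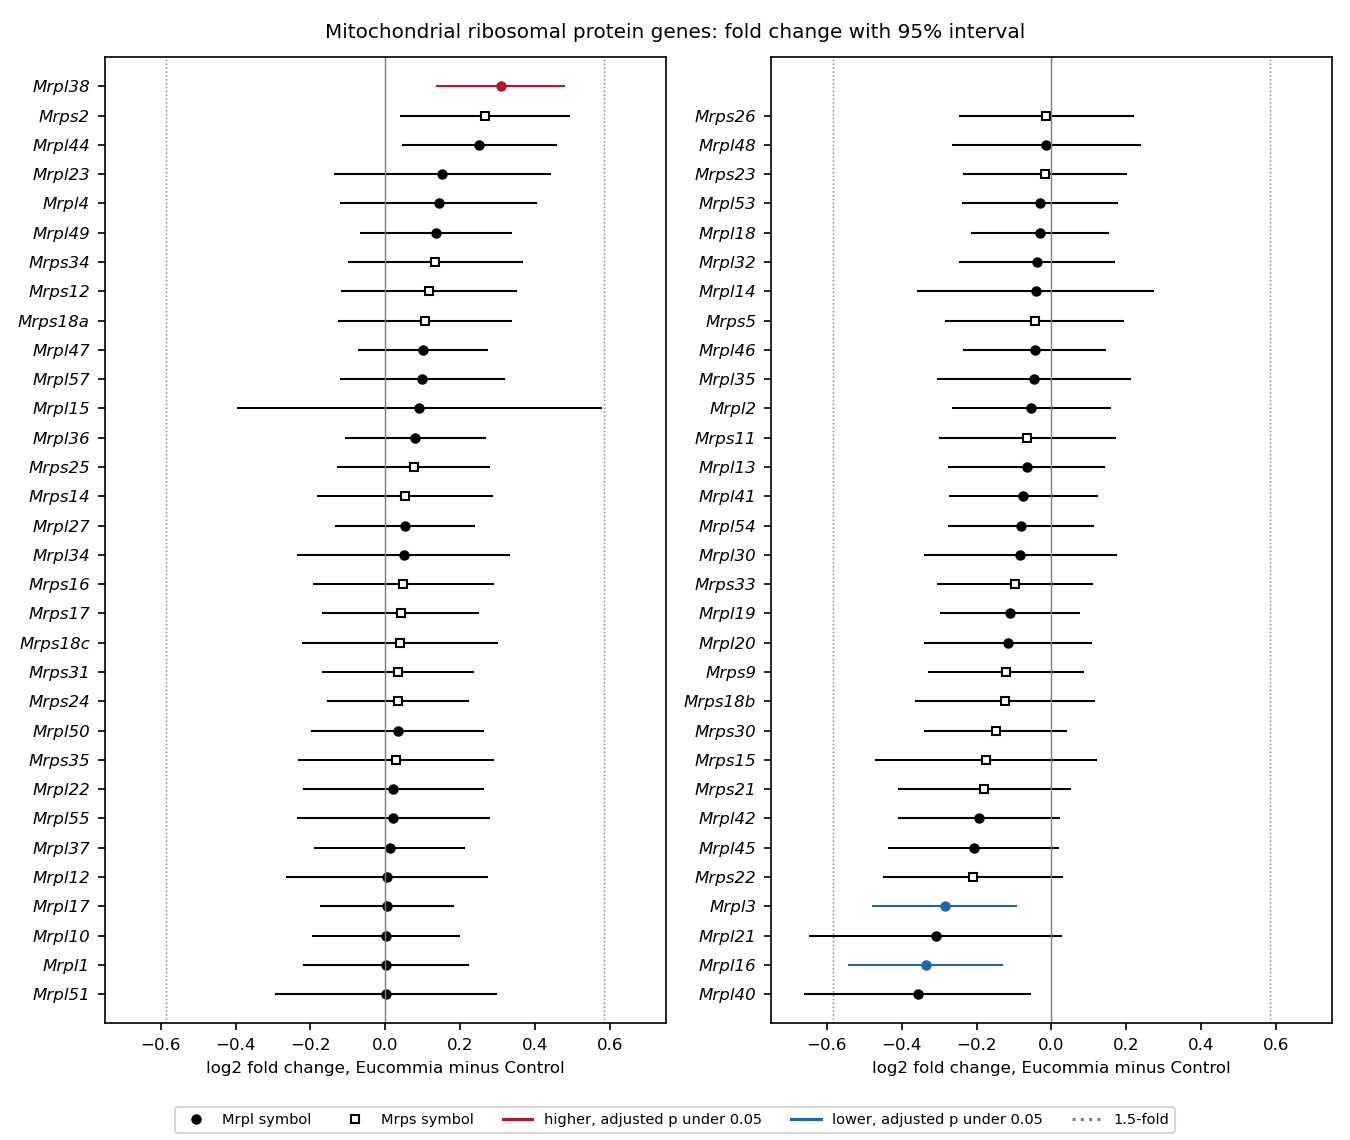
Log2 fold change, Eucommia minus Control (horizontal axis), of each of the 63 mitochondrial ribosomal protein genes, from the highest to the lowest, with the 95% interval from limma as a line; filled circles are Mrpl and open squares Mrps symbols, and dotted lines mark 1.5-fold. Only the intervals of Mrpl40 and Mrpl21 cross a dotted line, and coloured points mark Mrpl38 (higher), Mrpl16 and Mrpl3 (lower).

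All Eucommia arrays lay on one slide and all Control arrays on another, and the effects of slide and treatment therefore cannot be told apart. Spots well above background made up 69.3% to 71.9% of each Eucommia array and 58.9% to 61.5% of each Control array. The position of 0 also depends on the scaling: with arrays centred on their median in place of the 75th percentile, the median of all features moved to -0.24 and that of the 63 genes to -0.25. Under that centring 28 of the 63 genes were lower and 0 higher, while 46.7% of all features passed, 7953 of 25120 as lower. Mrpl38 no longer passed (0.05, adjusted p = 0.624). The median of the 63 genes minus that of all features was -0.02 under both scalings, which differ only by a constant per array. It was 0.05 under quantile normalization, 0.02 under normexp with quantile normalization, 0.08 with no filter on dim probes and 0.02 with the filter at all 8 arrays, so its sign is not settled.

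**Figure D2:**
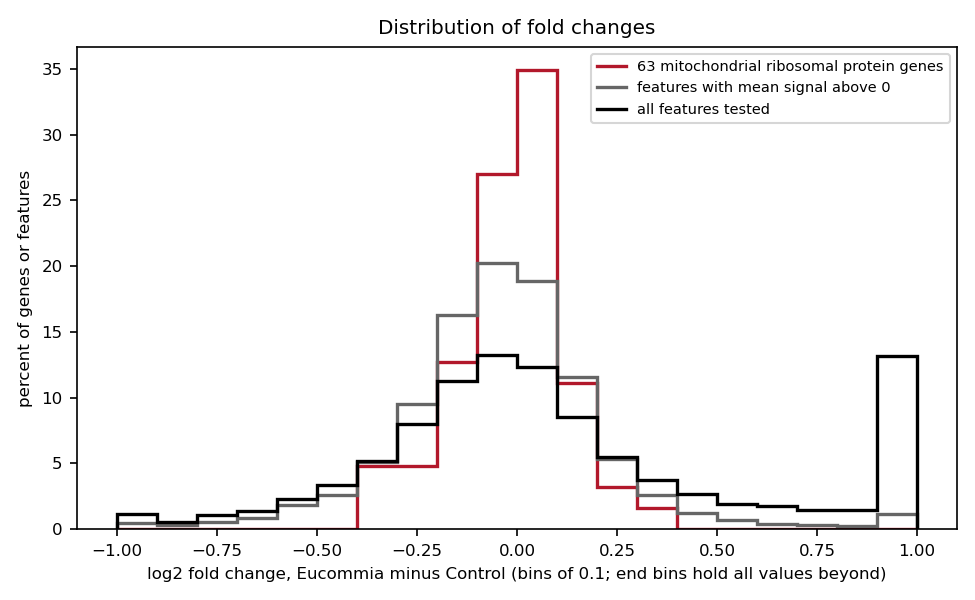
Percent of genes or features (vertical axis) in bins of the log2 fold change, Eucommia minus Control (horizontal axis), for the 63 mitochondrial ribosomal protein genes, the features with a mean signal above 0 and all features tested; the end bins hold all values beyond. The 63 genes lie between -0.36 and 0.31, inside the spread of both other sets.

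Signal strength was compared within bins, since bright probes differ less between groups than dim ones. Of the 24 genes with a mean signal of 2 to 4, 0 passed, against 7.76% of the 2705 features in that bin. Of the 22 genes with a mean signal above 4, 0 passed, against 7.80% of 1975 features. The median absolute difference was 0.047 for the genes and 0.124 for the features in the first of these bins, and 0.059 for the genes and 0.116 for the features in the second. Of the 14 genes with a signal of 0 to 2, 2 passed, both as lower, against 11.8% of 4280 features, and the genes' median absolute difference of 0.16 was near the 0.15 of the features in that bin. The 3 genes with a signal of -2 to 0 were Mrpl38, Mrpl2 and Mrps18b, of which Mrpl38 passed, against 22.1% of 5518 features. With so few genes in a bin, a single call moves its share greatly.

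Both subunits had medians near 0. Among the 40 Mrpl genes, 1 was higher and 2 were lower, with a median of -0.007. Among the 23 Mrps genes, 0 were higher and 0 lower at the adjusted threshold, 1 had an unadjusted p under 0.05, and the median was 0.03. Many proteins of this ribosome descend from bacterial ribosomal proteins, and others joined it during mitochondrial evolution. The genes were divided by whether the number in the symbol is that of a bacterial counterpart, which leaves a few descendants of bacterial proteins under other numbers, such as Mrpl47 and Mrps24, in the second class. The 23 Mrpl genes with such a number included both that were lower, with a median of -0.03, and the other 17 included Mrpl38, with a median of 0.0009. The 13 Mrps genes with such a number had a median of 0.04 and the other 10 a median of 0.008.

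Mrpl38, which encodes a large-subunit protein with no bacterial counterpart, was the only member to pass as higher. Its signal was -0.12, -0.07, -0.10 and -0.05 on the Eucommia arrays, against -0.42, -0.38, -0.44 and -0.35 on the Control arrays. Every Eucommia value was above every Control value. The difference was 0.31 ± 0.076 (SE, n = 4 each), a ratio of 1.24, with an adjusted p of 0.0167 from limma. Leaving out Eucommia replicate 2 moved the adjusted p to 0.0593, and it passed in the other 7 fits that left out an array.

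Mrpl16 encodes the mitochondrial form of bacterial ribosomal protein L16, a large-subunit protein. Its signal was 1.27, 1.23, 1.51 and 1.32 on the Eucommia arrays, against 1.74, 1.65, 1.65 and 1.63 on the Control arrays. The 4 Eucommia values lay below the 4 Control values, with Eucommia replicate 3 nearest to them. The difference was -0.34 ± 0.091 (SE, n = 4 each), a ratio of 0.792, with an adjusted p of 0.0260. Under normexp with quantile normalization the difference was -0.19 and did not pass (adjusted p = 0.0730). With 1 array left out, the call held without Eucommia replicate 3 or without Control replicate 4. It was lost without Eucommia replicate 1 (adjusted p = 0.0782), Eucommia replicate 2 (0.0912), Eucommia replicate 4 (0.0543), Control replicate 1 (0.0569), Control replicate 2 (0.0527) or Control replicate 3 (0.0532).

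Mrpl3 encodes the mitochondrial form of bacterial L3, which lies near the peptidyl transferase centre. Its signal was 1.12, 1.01, 1.12 and 1.11 on the Eucommia arrays, against 1.46, 1.25, 1.38 and 1.40 on the Control arrays. The groups did not overlap, and the lowest value of each group was its replicate 2. The difference was -0.29 ± 0.085 (SE, n = 4 each), a ratio of 0.820, with an adjusted p of 0.0383. Of the fits that left out 1 array, only the one without Control replicate 2 passed (adjusted p = 0.0358). The adjusted p was 0.0815, 0.122, 0.0798 and 0.0605 without Eucommia replicates 1 to 4, and 0.0801, 0.0787 and 0.0809 without Control replicates 1, 3 and 4.

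Of the members that did not pass, the largest difference was that of Mrpl40, a large-subunit protein with no bacterial counterpart. Its signal was -0.01, 0.11, 0.44 and 0.52 on the Eucommia arrays, against 0.51, 0.66, 0.68 and 0.64 on the Control arrays. Eucommia replicate 4 overlapped the Control values and Eucommia replicates 1 and 2 lay far below them. The difference was -0.36 ± 0.13 (adjusted p = 0.0869). A second, dimmer probe of Mrpl40 gave 0.14 ± 0.11, of the opposite sign, and this was the only gene whose probes differed by more than 0.5. Mrpl21, the counterpart of bacterial L21, had the same kind of spread. Its signal was 0.54, 0.73, 0.80 and 1.25 on the Eucommia arrays, against 1.03, 1.20, 1.22 and 1.11 on the Control arrays. Its highest value was that of Eucommia replicate 4, and the difference was -0.31 ± 0.15 (adjusted p = 0.175). Without that array Mrpl40 passed at -0.44 (adjusted p = 0.0469) and Mrpl21 at -0.45 (0.0189), and with array weights Mrpl40 passed at -0.45 (0.0341) and Mrpl21 at -0.42 (0.0423).

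Mrpl44, a large-subunit protein with an RNase III-like fold, had the lowest adjusted p of those that did not pass. Its signal was 3.76, 3.69, 3.69 and 3.91 on the Eucommia arrays, against 3.53, 3.61, 3.48 and 3.42 on the Control arrays. The groups did not overlap, and the difference was 0.25 ± 0.091 (adjusted p = 0.0782). It passed under quantile normalization (adjusted p = 0.0243), a percentile taken only over probes detected on every array (0.0444), normexp with quantile normalization (0.00518) and a trended and robust variance (0.0395), and was -0.004 under median centring (0.974). Mrps2, the counterpart of bacterial S2 in the small subunit, read 2.81, 2.83, 2.96 and 2.79 on the Eucommia arrays, against 2.51, 2.79, 2.59 and 2.45 on the Control arrays. Control replicate 2 came within rounding of the lowest Eucommia value. The difference of Mrps2 was 0.27 ± 0.10 (adjusted p = 0.0886), and without Control replicate 2 it passed at 0.33 (0.0408). Mrps2 also passed under quantile normalization (0.0353), normexp with quantile normalization (0.00792) and a trended and robust variance (0.0495). Mrps22, a small-subunit protein with no bacterial counterpart, read 0.35, 0.38, 0.37 and 0.31 on the Eucommia arrays, against 0.45, 0.53, 0.44 and 0.83 on the Control arrays. Its groups did not overlap, Control replicate 4 stood above the rest, and the difference was -0.21 ± 0.11 (adjusted p = 0.197). Mrpl45, a large-subunit protein that sits at the exit of the peptide tunnel, read 1.78, 1.53, 1.63 and 1.51 on the Eucommia arrays, against 1.91, 1.90, 1.78 and 1.69 on the Control arrays. These overlapped, with a difference of -0.21 ± 0.10 (adjusted p = 0.177).

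**Figure D3:**
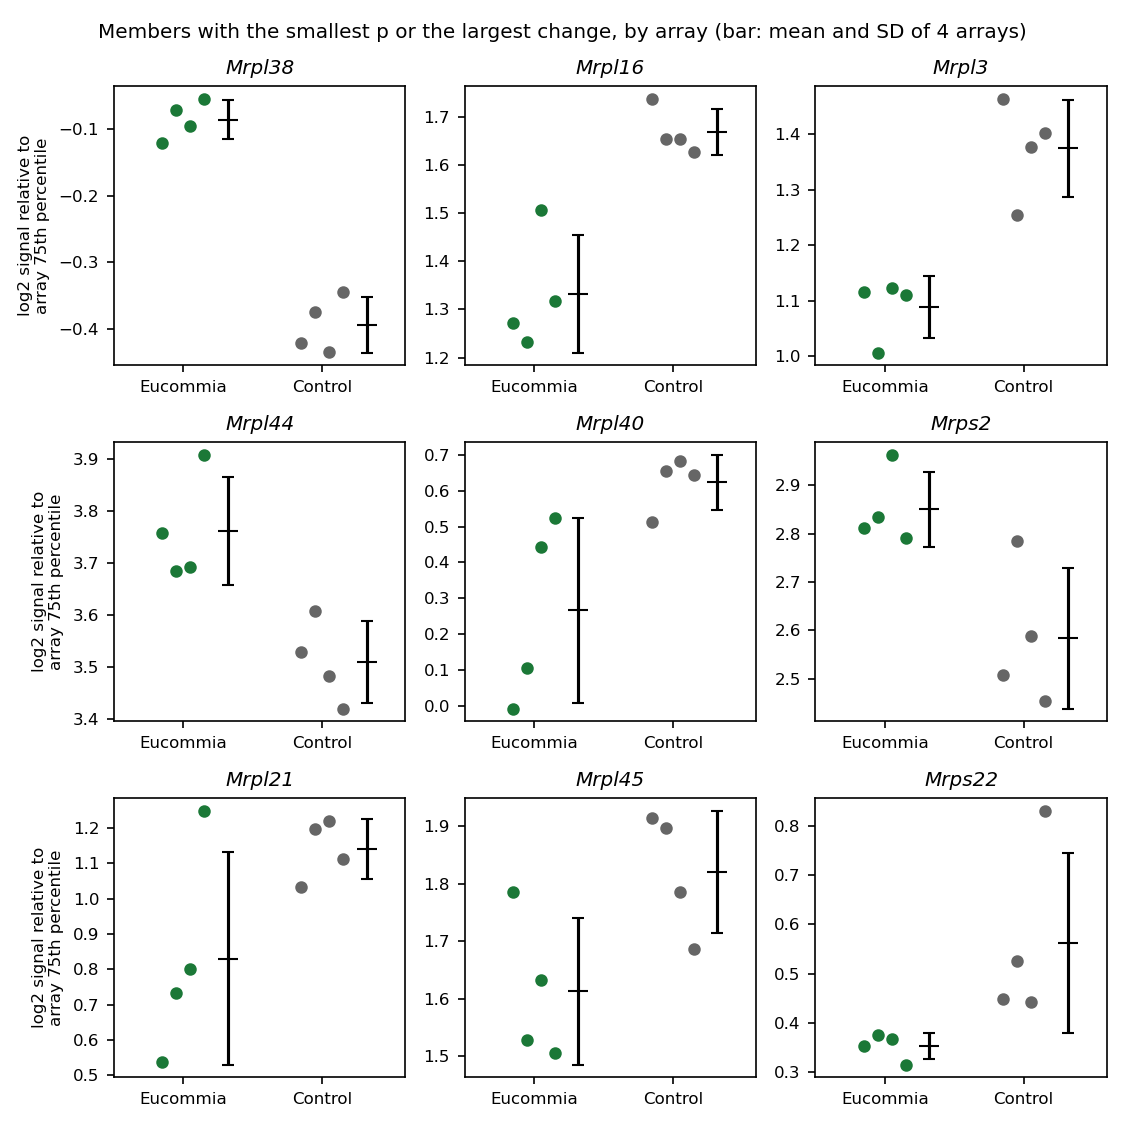
Log2 signal relative to the 75th percentile of the array (vertical axis, own range in each panel) on the 4 Eucommia arrays (left) and the 4 Control arrays (right) for Mrpl38, Mrpl16, Mrpl3 and the 6 other genes with the largest differences; the bar beside each group is the mean and SD. The groups are apart for Mrpl38, Mrpl16, Mrpl3, Mrpl44, Mrps2 and Mrps22 and overlap for Mrpl40, Mrpl21 and Mrpl45.

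The remaining genes whose groups did not overlap were Mrps30 and Mrpl47, with small differences. Mrps30 read 3.52, 3.44, 3.53 and 3.50 on the Eucommia arrays, against 3.70, 3.75, 3.56 and 3.59 on the Control arrays, a difference of -0.15 ± 0.084 (adjusted p = 0.246). Mrpl47 read 0.42, 0.49, 0.45 and 0.41 on the Eucommia arrays, against 0.31, 0.37, 0.31 and 0.39 on the Control arrays, a difference of 0.10 ± 0.076 (adjusted p = 0.388). Both genes were chosen for this description with their values in view.

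The 4 genes with the highest mean signal differed little. Signals of different probes do not rank genes by RNA level, since probes bind with different strength. Mrps34, a small-subunit protein with no bacterial counterpart, averaged 6.31 ± 0.13 on the Eucommia arrays and 6.17 ± 0.12 on the Control arrays (SD, n = 4 each), a difference of 0.13. Mrpl30, the counterpart of bacterial L30, averaged 5.93 ± 0.19 on the Eucommia arrays and 6.01 ± 0.08 on the Control arrays, a difference of -0.08. Mrpl53 averaged 5.46 ± 0.08 on the Eucommia arrays and 5.49 ± 0.10 on the Control arrays, a difference of -0.03. Mrpl37 averaged 5.43 ± 0.09 on the Eucommia arrays and 5.42 ± 0.08 on the Control arrays, a difference of 0.01. Their adjusted p-values from limma ran from 0.398 to 0.942, and the 95% intervals of the 4 differences lay between -0.34 and 0.37.

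Among the 4 genes with the lowest mean signal, the 3 besides Mrpl38 did not pass. Mrpl2, the counterpart of bacterial L2 near the peptidyl transferase centre, averaged -0.12 ± 0.13 on the Eucommia arrays and -0.06 ± 0.05 on the Control arrays (SD, n = 4 each), a difference of -0.05. Mrps18b, 1 of 3 mitochondrial relatives of bacterial S18 among the members, averaged -0.12 ± 0.11 on the Eucommia arrays and 0.0002 ± 0.15 on the Control arrays, a difference of -0.12. Its relatives Mrps18a and Mrps18c had differences of 0.11 and 0.04. Mrpl10, the counterpart of the bacterial stalk protein L10, averaged 0.008 ± 0.03 on the Eucommia arrays and 0.006 ± 0.11 on the Control arrays, a difference of 0.002. Mrpl12, the stalk protein that Mrpl10 holds in bacterial and mitochondrial ribosomes, averaged 4.98 ± 0.19 on the Eucommia arrays and 4.97 ± 0.12 on the Control arrays, a difference of 0.004. These last comparisons with Mrpl12, Mrps18a and Mrps18c were chosen with the values in view.

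Of the 8 genes with more than 1 probe above the filter, 4 had probes of opposite sign, namely Mrpl35, Mrpl40, Mrpl57 and Mrps14. Apart from Mrpl40, the largest gap between probes of a gene was 0.26, for Mrpl18. Its brighter probe, used here, gave -0.03 and its dimmer probe -0.29 ± 0.080, which passed when every probe was tested on its own (adjusted p = 0.0287). The genes named for their probes here, apart from Mrpl40, were chosen with the values in view. The gene table lists pseudogene symbols for 21 of the 63 genes, up to 9 for Mrpl30, and whether a probe also binds their transcripts cannot be read from the signal.

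Within each group the members moved together from array to array. On Eucommia replicate 4, 53 of the 63 genes lay above their own Eucommia mean (84.1%), with a median deviation of 0.12. On the other Eucommia arrays 16 to 20 did. On Control replicate 2, 51 of 63 lay above their own Control mean (81.0%), with a median deviation of 0.07, against 18 to 34 on the other Control arrays. These were also the arrays with the lowest 75th percentile of raw signal in their group, 219 for Eucommia replicate 4 and 227 for Control replicate 2.

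Other gene groups moved on the same arrays. On Eucommia replicate 4, 97.3% of 75 cytosolic ribosomal protein genes and 88.1% of 67 respiratory chain and ATP synthase genes lay above their group mean, as did 68.1% of features with a mean signal above 0 and 57.2% of all features. On Control replicate 2 these shares were 98.7%, 86.6%, 59.2% and 60.9%. The median difference of the 63 genes was -0.06 without Eucommia replicate 4 and 0.03 without Control replicate 2. The part of array quality or of the scaling in this movement was not tested. Between pairs of arrays, the correlation across the 63 genes was 0.995 to 0.998 within Eucommia, 0.996 to 0.997 within Control and 0.993 to 0.996 between the groups. These are correlations over genes, which are not independent replicates, and they mostly reflect fixed differences between probes.

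**Figure D4:**
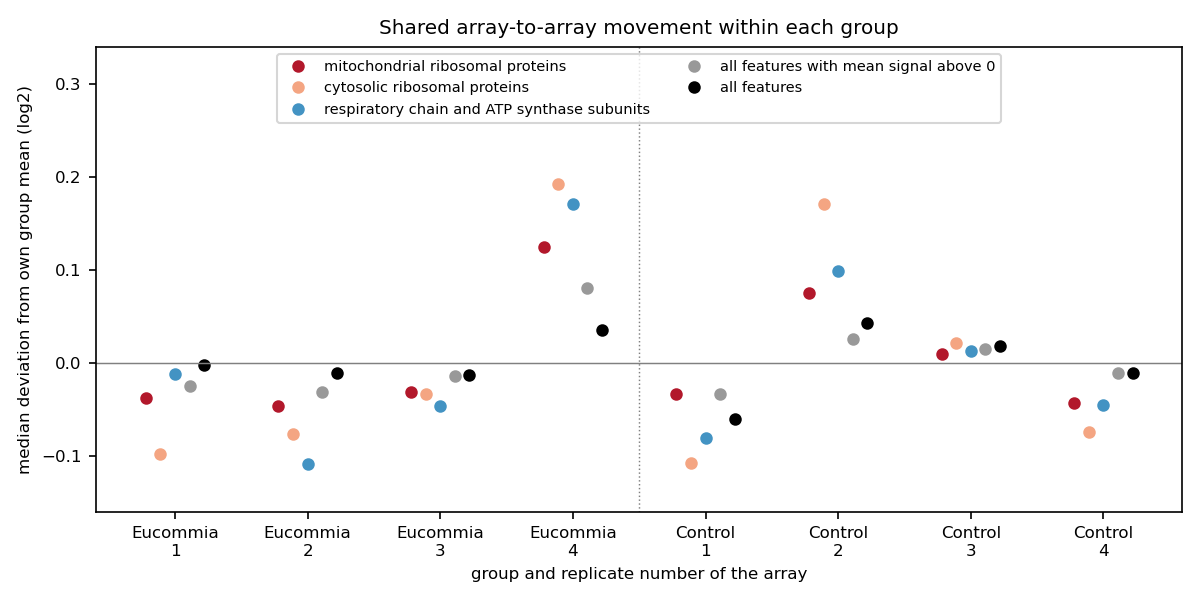
Median deviation from the mean of the own group (vertical axis, log2) on each array (horizontal axis, Eucommia replicates 1 to 4 and then Control replicates 1 to 4), for the 63 mitochondrial ribosomal protein genes, cytosolic ribosomal protein genes, respiratory chain and ATP synthase genes, features with a mean signal above 0 and all features. Eucommia replicate 4 and Control replicate 2 stand highest in their groups for every set, at 0.12 and 0.07 for the 63 genes.

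Promoter sequence was examined because nuclear genes for mitochondrial proteins often share binding motifs for ETS factors such as GABP, for NRF1 and for YY1. A RefSeq promoter table of build GRCr8 held 300 bases, from 250 before to 50 after the start, for 51 of the 63 genes. The windows below show each motif, with matches on either strand in capitals. The first is the called gene Mrpl3, with the ETS core just after its start (chr8:114548870-114549019, plus strand). The next is Mrpl44, with overlapping NRF1 motifs that form a palindrome (chr9:88554900-88555099, plus strand).
Mrpl3: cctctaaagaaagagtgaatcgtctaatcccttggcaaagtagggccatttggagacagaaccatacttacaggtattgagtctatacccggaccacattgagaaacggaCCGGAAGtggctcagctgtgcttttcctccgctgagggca
Mrpl44: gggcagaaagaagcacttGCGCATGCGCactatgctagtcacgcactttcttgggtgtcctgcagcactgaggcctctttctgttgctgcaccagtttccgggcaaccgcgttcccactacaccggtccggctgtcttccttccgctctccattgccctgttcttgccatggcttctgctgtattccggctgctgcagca

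Mrps18b was the only member whose window held all 3 motifs (chr20:2842906-2843055, plus strand). Mrpl36 had an ETS core and a YY1 core (chr1:31795072-31795221, minus strand). Mrpl46 had a YY1 core after its start and shares its upstream region with another member, Mrps11 (chr1:142116981-142117280, minus strand).
Mrps18b: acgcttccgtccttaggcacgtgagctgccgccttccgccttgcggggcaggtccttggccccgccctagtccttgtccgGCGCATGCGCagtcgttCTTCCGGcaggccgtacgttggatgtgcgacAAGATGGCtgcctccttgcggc
Mrpl36: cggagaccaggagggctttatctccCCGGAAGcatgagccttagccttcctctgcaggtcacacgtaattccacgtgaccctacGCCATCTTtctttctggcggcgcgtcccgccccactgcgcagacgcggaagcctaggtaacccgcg
Mrpl46: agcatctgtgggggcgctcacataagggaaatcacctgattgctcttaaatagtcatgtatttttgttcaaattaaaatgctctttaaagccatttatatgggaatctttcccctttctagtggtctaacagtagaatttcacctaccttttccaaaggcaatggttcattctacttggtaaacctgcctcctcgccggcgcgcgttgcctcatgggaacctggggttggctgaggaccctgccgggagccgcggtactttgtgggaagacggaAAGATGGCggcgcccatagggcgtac

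Motif matches were more frequent in the members' windows than in the whole table. The ETS core CCGGAAG stood in 16 of 51 members (31.4%), against 9.63% of the 27457 genes in the table. The YY1 core AAGATGGC stood in 11 of 51 (21.6%), against 3.62%. The NRF1 motif GCGCATGC stood in 5 of 51 (9.80%), against 2.77%. At least 1 of the 3 stood in 26 of 51 (51.0%), against 14.7%. All members have an established symbol, as do 17286 genes of the table. Among those 17286 the shares were 12.4% for the ETS core, 4.19% for YY1, 3.59% for NRF1 and 18.4% for any. Both strands were searched, and the full NRF1 palindrome matches on both. The members' windows were also richer in G and C, with a median of 55.7% against 51.7% for all windows, and the part of this base composition in the motif counts was not tested. Of the 11 YY1 matches, the median position was 16 bases after the start. Of the 17 ETS matches, 15 lay between 100 bases before and 20 bases after it. A match is a description of the letters and does not show binding.

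Medians lay near 0 for members with and without each motif. The median difference was 0.01 for the 16 genes with an ETS core and 0.0009 for the 35 without one. It was 0.004 for the 5 with the NRF1 motif and -0.006 for the 46 without, and -0.01 for the 11 with the YY1 core and 0.001 for the 40 without. Of the genes past the threshold, only Mrpl3 had a window in the table.

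Many members start next to a gene that is read in the opposite direction. Such a partner, with its start within 1000 bases, was found for 16 of 51 members (31.4%), against 11.3% of all genes in the table. Mrpl46 and Mrps11 face away from each other with 234 bases between their starts, and their differences were -0.04 and -0.06. Mrpl47 lies beside Ndufb5, a complex I subunit, and their differences were 0.10 and -0.05. Mrpl49 lies beside Fau, which encodes a cytosolic ribosomal protein fused to a ubiquitin-like protein, with differences of 0.14 and -0.06. Mrpl32 lies beside the proteasome gene Psma2, with differences of -0.04 and -0.12. Mrpl40 lies beside Hira, a histone chaperone gene, with differences of -0.36 and -0.24. The 11 partners measured include Mrpl46 and Mrps11, each counted as the partner of the other. Of these 11, 0 passed at the adjusted threshold, against 24.6% of all features. An unadjusted p under 0.05 in limma was found for 0 of the 11, against 35.7% of all features. The 11 are too few for a share to be read from them. This search was chosen after values were seen.

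**Figure D5:**
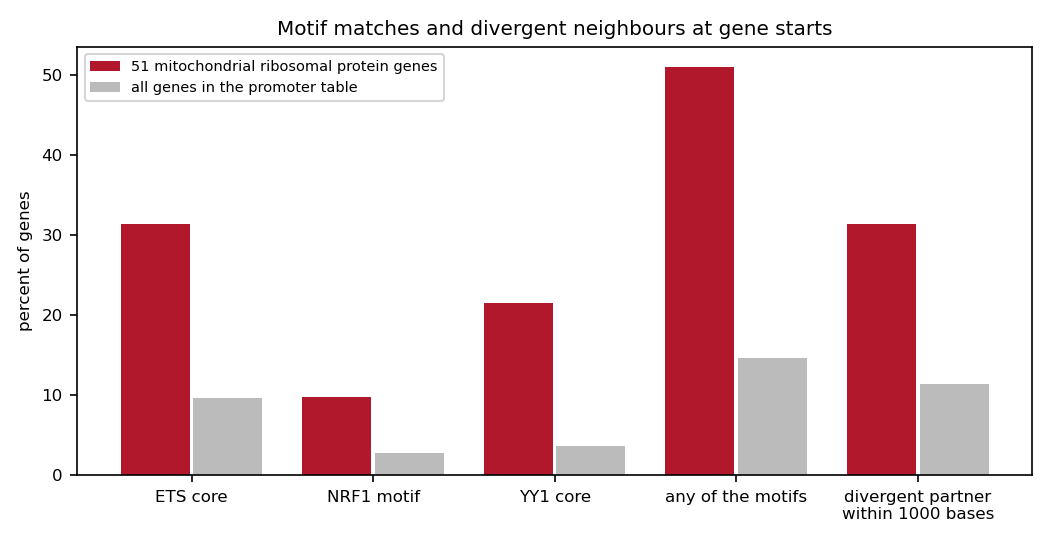
Percent of genes (vertical axis, from 0) with each motif in the 300 bases around the start, with any of the 3, and with a divergent partner within 1000 bases, for 51 mitochondrial ribosomal protein genes (left bar) and all 27457 genes of the promoter table (right bar). Each share is higher in the 51 genes, from 9.80% against 2.77% for the NRF1 motif to 51.0% against 14.7% for any motif. Among the 17286 genes with an established symbol, not drawn, these shares are 3.59% and 18.4%.

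Genes that act with this ribosome were counted in the same fit, in lists of 6 to 18 genes. Such lists are too small for a share of calls to be set against the 24.6% of all features. The same holds for the 9.69% of features with a mean signal above 0. Of 6 genes with other symbols for proteins that belong to or associate with this ribosome, 0 passed. An unadjusted p under 0.05 was found for 0 of the 6, and 3 differences were negative. Of 18 measured genes for ribosome assembly and rRNA handling, 0 passed (2 at unadjusted p under 0.05), with a median of -0.01 and 12 negative differences. Of 11 translation factors, 0 passed (2 unadjusted), with a median of -0.05 and 7 negative differences. Of 12 genes that charge tRNAs for this ribosome, mitochondrial aminoacyl-tRNA synthetases and the amidotransferase subunit Qrsl1, 0 passed (2 unadjusted), with a median of 0.13 and 3 negative differences. Of 15 genes for mitochondrial DNA maintenance and transcription, 0 passed (1 unadjusted), with a median of -0.01 and 11 negative differences. Of 8 regulators of mitochondrial gene programmes, 0 passed (0 unadjusted), with a median of -0.04 and 5 negative differences. Among these, Gabpa, which binds the ETS core, had a difference of -0.21 ± 0.13, Nrf1 of 0.02 ± 0.10 and Yy1 of -0.08 ± 0.099, none past the threshold in limma.

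Of 10 matrix proteases and chaperones, only Trap1, the mitochondrial relative of HSP90, passed. It averaged 3.997 ± 0.06 on the Eucommia arrays and 4.27 ± 0.09 on the Control arrays (SD, n = 4 each), a difference of -0.27 (adjusted p = 0.0490, limma).

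Of the 75 cytosolic ribosomal protein genes, 0 were higher and 5 lower, with a median of -0.07. That is 6.67%, against 4.76% of the 63 mitochondrial ribosomal protein genes. The groups did not overlap for 9.33% of the 75, against 12.7% of the 63. The median absolute difference was 0.086 for the 75 genes and 0.075 for the 63. Rpl37al2 averaged 2.07 ± 0.43 on the Eucommia arrays and 3.64 ± 0.19 on the Control arrays, and Rps26 averaged 0.20 ± 0.64 on the Eucommia arrays and 1.80 ± 0.22 on the Control arrays. The other 3 were Rpl22l1 (-0.52), Rpl38 (-0.33) and Rps27a (-0.43). Cytosolic ribosomal protein genes have many near-identical copies, so these values are uncertain.

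Of the 67 respiratory chain and ATP synthase genes, whose complexes hold the proteins the mitochondrial ribosome makes, 2 were higher and 3 lower, with a median of -0.05. Cox6a2, the muscle form of a cytochrome c oxidase subunit, averaged 0.47 ± 0.14 on the Eucommia arrays and -0.94 ± 0.11 on the Control arrays, a difference of 1.42. Atp5pf, an ATP synthase subunit, was higher by 0.32. Among the lower genes were Cox7c (-0.53), a cytochrome c oxidase subunit, and Ndufa1 (-0.30), a complex I subunit. Of the 67 genes 7.46% passed, and the groups did not overlap for 11.9%. Their median absolute difference was 0.109. Few calls and small differences were thus seen in the cytosolic and respiratory chain lists as well as in the 63 genes. Whether any of these lists differed from the mitochondrial ribosomal protein genes was not tested.

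Markers were read to check the tissue. All 8 hepatocyte markers were well above background on all arrays, and 1 (Tf) was lower. The log2 of their summed linear signals was 12.3 to 12.6 on Eucommia arrays and 12.5 to 12.7 on Control arrays. Of 10 Kupffer cell and macrophage markers 0 passed (3 unadjusted), and all 10 had negative differences. The log2 of their summed linear signals was 6.42 to 7.08 on Eucommia arrays and 6.84 to 7.52 on Control arrays. Of 7 T, B and NK cell markers on the array 5 were tested. Cd3d was higher, and 1 of the 5 differences was negative. Of 5 endothelial markers Cdh5 was higher, while 3 of the 5 differences were negative and the list's median was -0.17. Pecam1, the other of the 2 with a positive difference, did not pass. It was well above background on 4 Eucommia and 0 Control arrays, and so was tested only through the Eucommia group. Of 7 stellate cell markers Col1a1 was higher, and 1 of the 7 differences was negative. Of 3 cholangiocyte markers Epcam was lower, and Krt19 had a difference of 0.22 that did not pass. The third, Cftr, was well above background on 4 Eucommia and 0 Control arrays. It was thus tested only through the Eucommia group, where it was high. Of 8 pancreatic acinar markers on the array 5 were tested. Ctrb1 and Cela2a were higher, while 2 of the 5 differences were negative. Of 7 skeletal muscle markers on the array only Tnni2 passed the background filter and was tested, and it was higher. Of 4 erythroid markers 0 passed (1 unadjusted). The part of cell makeup in the values of the 63 genes was not tested.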

How the data were processed

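Liver RNA of 4 Eucommia and 4 Control samples was labelled with Cy3 (500 ng of total RNA each, per the labels' protocols) and measured on 1 array per sample. The deposited scanner files hold intensity values, which the submitters' processing notes credit to Agilent Feature Extraction 10.1.1.1. Their processed signal is background-subtracted within each array and is not normalized between arrays, per the file headers. Flags of another kind in the same deposited files mark control, outlier, saturated and above-background spots. The deposited series table equalled the processed signal at 100% of 43379 spots on every array (relative tolerance 1e-06), so its scale is linear and not centred, with column medians of 26.3 to 32.0. Intensities carry no counts, so the number of arrays limits the precision.

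Signals were taken to log2 relative to the 75th percentile of their array. Control and outlier spots were left out, and 0 spots were saturated. Probes well above background on at least 4 of 8 arrays were kept (27715). RefSeq accessions in a GRCr8 gene table named 16336 of the 41012 probes on the array (39.8%), and a gene was represented by its brightest probe. The 25120 features, 9969 with a symbol, entered a 2-sided limma fit (version 3.58.1, R 4.3.3) with Benjamini-Hochberg adjustment over all of them. The fit was tested on simulated data with independent noise and added differences. The simulation held no slide effect and no shared movement of arrays, so it does not bear on either. Figures and promoter searches used Python 3.11.15, pandas 2.3.3 and matplotlib 3.10.9.

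The members, lists and tests were chosen with earlier results of these data known, so counts and medians over them are descriptions. Genes named are every member past the threshold, the 6 largest differences that did not pass, the 4 highest and 4 lowest mean signals, members whose probes differ by more than 0.5, and up to 4 genes past the threshold per related list. Any other was chosen with its values in view, and Rps27a, Atp5pf, Gabpa, Nrf1, Yy1 and the divergent partners belong to these. Alternatives changed the scaling, background correction, filter, probe choice, variance model, array weights, replicate block and arrays included. The normexp alternative used median foreground signals with an offset of 50. Slides hold 1 group each, so no fit with slide as a block was possible. The values of 1 gene of a related list are not reported here.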

Additional observations from a re-analysis of the deposited data

Results flagged for a closer look

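Each of the 63 genes was examined in each group for a single array far from the other 3 (Dixon's criterion, 126 groups). Chance marks about 1 group in 20, and 10 were marked. In 3 of them Eucommia replicate 4 was the highest: Mrpl30 at 6.22 against 5.81 to 5.85 on the other Eucommia arrays, Mrpl32 at 3.77 against 3.54 to 3.58, and Mrpl1 at 3.57 against 3.34 to 3.36. In 3 others Control replicate 2 was the highest: Mrpl19 at 2.77 against 2.64 to 2.65 on the other Control arrays, Mrps15 at 2.23 against 2.04 to 2.07, and Mrps18a at 2.98 against 2.78 to 2.80. These are the arrays on which most of the 63 genes lay above their group mean. The lowest array stood apart for Mrpl3 on Eucommia replicate 2 (1.01 against 1.11 to 1.12), Mrpl37 on Eucommia replicate 3 (5.30 against 5.46 to 5.50), Mrps35 on Control replicate 4 (3.12 against 3.33 to 3.35) and Mrps23 on Control replicate 3 (2.86 against 3.02 to 3.04).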

How the results depend on the processing

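Of the 63 genes, 3 passed in the analysis as reported, where 24.6% of all features did. The number was 5 under quantile normalization (28.3% of all features), 28 under median centring (46.7%), 9 under normexp with quantile normalization (26.5%), 5 with a trended and robust variance (25.4%), 5 with array weights (26.6%) and 0 with the replicate number as a block (20.4%), and 0 to 3 when 1 array was left out. The number over all 25120 features was 6170 as reported. It was 11738 under median centring, 12758 of 37684 with no filter, 3695 of 20094 with the filter at all 8 arrays, and 3287 to 5727 when 1 array was left out, with fewer features tested. The share of higher calls among all calls was 74.9% as reported, 58.4% under quantile normalization, 32.2% under median centring, 59.2% under normexp, 42.2% with no filter and 62.7% with the filter at all 8 arrays. The median difference of the 63 genes was -0.25 under median centring, and -0.06 to 0.03 when 1 array was left out. Median centring moved every gene by the same amount and turned 30 of the 32 positive members negative, among them Mrpl37 (-0.24) and Mrpl10 (-0.25), which then passed. Over 21 fits, the reported one included, Mrpl38 passed in 18, Mrpl16 in 13 and Mrpl3 in 12. These fits are not independent. The series table holds the same values, and the changed filters and the mean over probes left the differences of these genes as they were. Of the 8 fits that left out 1 array, Mrpl38 passed in 7, Mrpl16 in 2 and Mrpl3 in 1. With the replicate block their adjusted p-values were 0.0821, 0.0902 and 0.105. The block is a formal alternative. Same-numbered arrays correlated at -0.10 to -0.03 in their deviations, and 0 of 8 correlated best with their own number. These deviations include the shared movement of Eucommia replicate 4 and Control replicate 2, so they cannot tell whether the numbers pair the samples. The causes of the shifts between fits were not tested. With 4 arrays per group, the standard errors of the 63 differences were 0.076 to 0.21.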

Other observations

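Mrpl15, the counterpart of bacterial L15, had the largest standard error of the 63 genes. It read 2.91, 3.13, 2.89 and 2.85 on the Eucommia arrays, against 2.49, 3.34, 2.42 and 3.16 on the Control arrays. Control replicates 2 and 4 lay above, and Control replicates 1 and 3 below, all Eucommia values. The SD was 0.13 on the Eucommia arrays and 0.47 on the Control arrays, and the difference was 0.09 with a standard error of 0.21. A second probe of Mrpl55 gave a difference of 0.23, against 0.02 for its brighter probe.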
